A study of Rattus norvegicus with 24 samples.

Results

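Bdh1, Ech1, Slc25a20, Fabp3, Ucp3, Pdk4 and Cpt1b encode proteins of fatty acid and ketone use in muscle. They were taken as all array features whose platform annotation gives 1 of these 7 symbols. That rule found all 7 genes, of 4736 genes with a feature that names a single symbol, through 9 probe sets of the 7006 that name a single symbol and of the 8799 on the array. A probe set is a group of short oligonucleotides that together read 1 transcript. Cpt1b and Ucp3 each had 2 probe sets, and the 2 for Cpt1b carry the same sequence accession in their names, so they are not independent readings. All 9 passed the filter on low values and were tested.

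Total RNA was measured in rats at 6, 18 and 30 months of age, in the extensor digitorum longus (EDL), a fast muscle of the lower hindlimb, and in the extraocular muscles (EOM), the small muscles that move the eye. The 6 groups held 4 arrays each, 24 in all, and each array carried RNA pooled from 4 animals. Strain, sex and any treatment were not given in the sources used here, and muscle and age are the only factors the labels name. Values are Affymetrix Microarray Suite intensities on a linear scale. They can be compared between arrays for 1 probe set but not between probe sets. Since pools of whole muscle were measured, fewer fibres of a type and less RNA per fibre cannot be told apart. The series' design text calls the 4 replicates of a group independent, without saying how animals were assigned to pools, and the p-values measure the spread between these pooled samples.

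Fat reaches a muscle fibre as free fatty acid, is carried through the cytosol by binding proteins and is activated to acyl-CoA. The acyl group then crosses the mitochondrial membranes on carnitine and is cut to acetyl-CoA by beta-oxidation. Ketone bodies, made from fat by the liver, enter the same acetyl-CoA pool in muscle mitochondria. Pyruvate dehydrogenase kinase restrains the use of glucose when fat is the main fuel. Limb muscle changes these genes with fasting, training and fibre type, and the extraocular muscles are known for many mitochondria and constant activity.

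The labels were checked against marker genes. The 3 eye-muscle and developmental myosin genes Myh13, Myh8 and Myh3 were all higher in EOM, with summed intensities of 36556 to 59144 on the EOM arrays and 878 to 3731 on the EDL arrays. All 12 tested genes of the fast fibre list were lower in EOM. Genes of other cell types moved with muscle as well. The nerve and Schwann cell list was higher in EOM for 5 of 5 tested genes (4694 to 7061 in EOM, 860.2 to 1924 in EDL), smooth muscle for 4 of 4 (3419 to 9493, 1449.5 to 3430.2) and red blood cells for 3 of 3 (10493.5 to 33934, 3087 to 6089). Fat cells were higher in EOM for 3 of 6 (4439.7 to 6158, 2849 to 4993). Gland and epithelium were higher for 6 of 8, with overlapping sums (3619 to 34496 in EOM, 310.6 to 7431 in EDL). The highest of these was on EOM replicate 4 at 18 months. The respiratory chain list had 2 genes higher and 4 lower of 19, with overlapping sums (153048 to 237083 in EOM, 162138 to 257936 in EDL). The slow and cardiac list had 4 higher and 2 lower of 11, macrophages 1 higher of 4, and endothelium 0 of 4 and liver and kidney 0 of 7 called by limma (0 in both at an unadjusted p under 0.05). The part of these other cell types in the muscle differences was not tested. On 3 EDL arrays technical measures stood apart: replicates 1 and 2 at 6 months had ratios of the 3′ to the 5′ beta-actin probe sets of 2.54 and 3.54, where all other arrays lay at 1.13 to 2.12, and replicate 1 at 30 months had the lowest median rank correlation with its own group (0.873).

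Averaged over the 3 ages, 4 of the 7 genes were higher in EOM and 2 were lower. Ech1 was 2.34-fold and Slc25a20 2.32-fold higher. Bdh1 was 9.96-fold higher on a scale with a floor, which 5 of its 12 EDL arrays did not reach, so that fold depends on the floor. For these 3 genes no EDL array reached the lowest EOM array. The share of all tested probe sets that separate the muscles in this way is not given here, so the separation is a description only. Fabp3 was 1.33-fold higher with overlapping arrays. Pdk4 was 1.93-fold lower and Cpt1b 1.37-fold and 1.28-fold lower by its 2 probe sets. Ucp3 did not pass the threshold. By probe set, 4 of 9 were higher, where 22.3% of the 5741 tested were, and 3 of 9 were lower, where 20.0% were. The median log2 difference over the 9 was -0.36, against -0.06 over all tested; Cpt1b and Ucp3 count 2 times each in it. Here and below a difference was called when the adjusted p of limma's moderated test, corrected by Benjamini-Hochberg over all 5741 probe sets, was under 0.05.

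At single ages the same 3 probe sets, those of Bdh1, Ech1 and Slc25a20, were higher in EOM each time, joined by Fabp3 at 30 months. At 6 months 3 were higher (11.6% of all tested were) and 2 lower (6.29%). At 18 months 3 were higher (14.1%) and 1 lower (9.25%). At 30 months 4 were higher (11.4%) and 1 lower (7.79%).

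**Figure D1:**
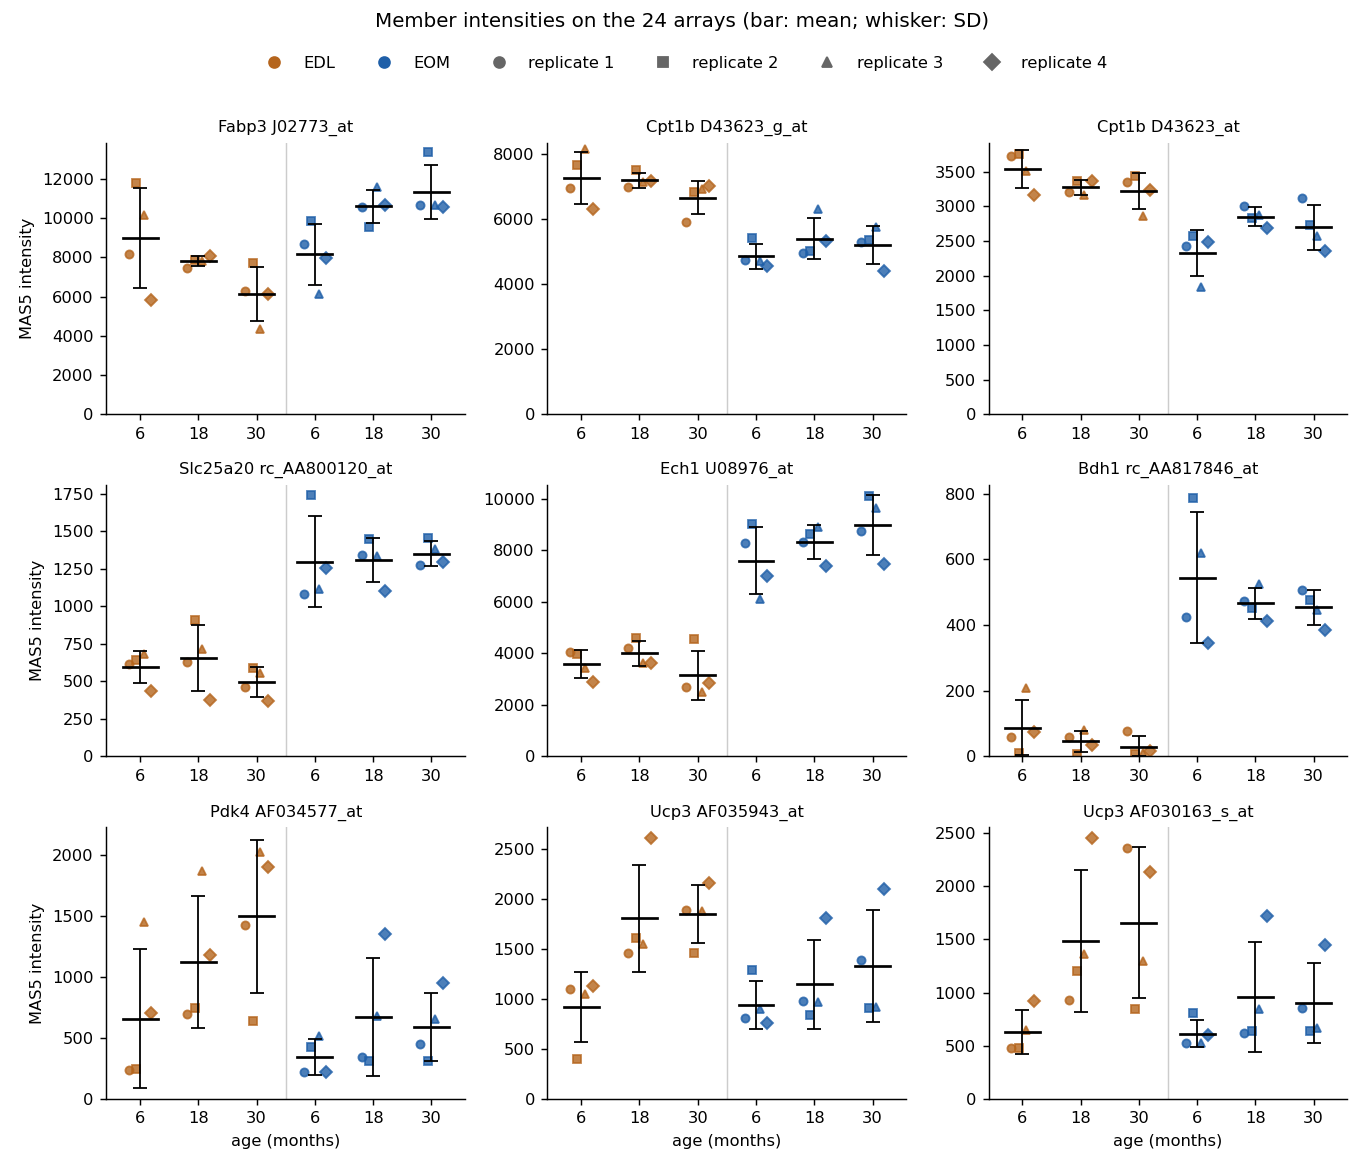
Intensity of each of the 9 probe sets (vertical axis, linear from 0) on the 24 arrays, by age in months for EDL (brown, left) and EOM (blue, right). Symbols mark the replicate number, bars the group mean and whiskers 1 SD of 4 arrays (drawn no lower than 0). Bdh1, Ech1 and Slc25a20 separate the muscles at every age, whereas Ucp3 and Pdk4 overlap between muscles.

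Fabp3 encodes the cytosolic fatty acid binding protein of heart and muscle. In EDL its probe set J02773_at gave 8189.5, 11788, 10143 and 5827 at 6 months, 7477, 7848, 7823 and 8068 at 18 months, and 6307.5, 7716, 4373 and 6114 at 30 months. In EOM the arrays gave 8674, 9870.2, 6155 and 7972.5 at 6 months, 10554, 9558, 11615 and 10677 at 18 months, and 10675, 13401, 10658 and 10586 at 30 months. The muscles overlapped at 6 months and did not overlap at 18 or 30 months. The log2 difference of EOM from EDL was -0.11 ± 0.19 (SE) at 6 months (adjusted p = 0.765), 0.44 ± 0.19 at 18 months (adjusted p = 0.0991, past the threshold in 2 of 36 alternatives) and 0.91 ± 0.19 at 30 months (adjusted p = 0.00122). Over the ages it was 0.41 ± 0.11 (adjusted p = 0.00363), a call that was lost when arrays were centred on their medians (adjusted p = 0.0556, the range over 36 alternatives being 0.000314 to 0.0556).

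Between 6 and 30 months the Fabp3 mean was lower in EDL and higher in EOM. It went from 8987 ± 2569 (SD, n = 4) to 6128 ± 1370 in EDL and from 8168 ± 1554 to 11330 ± 1381 in EOM. Neither shift passed correction: the log2 change was -0.53 in EDL (unadjusted p = 0.00968, adjusted p = 0.219) and 0.49 in EOM (unadjusted p = 0.0172, adjusted p close to 1). The EOM change exceeded the EDL change by 1.02 on the log2 scale (95% interval 0.47 to 1.57, unadjusted p = 0.000879), which also missed the threshold over all probe sets (adjusted p = 0.201). Without replicate 4 of EDL at 6 months, the lowest array of that group, both the EDL change (adjusted p = 0.0258) and the difference between muscles (1.21, adjusted p = 0.030) passed.

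The EDL arrays high in Fabp3 at 6 months differed in slow muscle genes too. The summed intensity of the 13 slow and cardiac muscle genes on the array was 57954, 131522, 132288 and 35446 on EDL replicates 1 to 4 at 6 months, and 29397, 33846, 28673 and 49124 at 30 months. At 6 months, replicates 2 and 3 were the highest and replicate 4 the lowest in both readings. The orders did not match at the later ages. At 18 months the sums were 37501, 67730, 38715 and 21864.5, and replicate 4, the lowest in them, was the highest in Fabp3 (8068). At 30 months replicate 4 was the highest in the sums, whereas replicate 2 was the highest in Fabp3 (7716). The median log2 change of the 11 tested slow and cardiac genes from 6 to 30 months in EDL was -1.10, with 1 called lower. The part of slow fibre content in the Fabp3 change was not tested.

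Cpt1b is the muscle form of carnitine palmitoyltransferase on the outer mitochondrial membrane, the step at which fat entry is controlled. The probe set D43623_g_at gave 6943, 7650.2, 8149.5 and 6304 in EDL at 6 months, 6969, 7503, 7124 and 7152 at 18 months, and 5890.3, 6818, 6913 and 7003 at 30 months. EOM gave 4738.5, 5425, 4694 and 4564 at 6 months, 4949, 4998, 6314 and 5320.0 at 18 months, and 5293.5, 5354, 5752 and 4390.0 at 30 months. All 4 EOM arrays lay below all 4 EDL arrays of the same age at each of the 3 ages. The log2 difference was -0.58 ± 0.12 at 6 months (adjusted p = 0.00157), -0.42 ± 0.12 at 18 months (0.0152) and -0.36 ± 0.12 at 30 months (0.0437), and -0.45 ± 0.07 over the ages (1.54e-05). The call at 30 months was lost in 15 of 36 alternative settings (adjusted p from 0.0109 to 0.248) and that at 18 months in 4.

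The second Cpt1b probe set, D43623_at, gave 3157 to 3758 in EDL and 1841 to 2573 in EOM at 6 months, 3157 to 3367 and 2690.4 to 3008 at 18 months, and 2856 to 3433 and 2357 to 3118 at 30 months. EOM was lower by 0.61 on the log2 scale at 6 months, the difference being -0.61 ± 0.13 (adjusted p = 0.00112). It was -0.20 at 18 months (adjusted p = 0.280) and -0.26 at 30 months (adjusted p = 0.168), neither past the threshold. Over the ages it was -0.36 ± 0.07 (adjusted p = 0.000345). Cpt1b had the steadiest arrays among the members, with coefficients of variation within groups of 3.14% to 11.8% and 3.27% to 14.3% for the 2 probe sets.

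Slc25a20, the carrier that exchanges acylcarnitine for free carnitine across the inner membrane, acts just after Cpt1b and differed the other way. Its probe set rc_AA800120_at gave 618, 641, 679.6 and 437 in EDL at 6 months, 628, 909, 716 and 378 at 18 months, and 462, 589.7, 559 and 367 at 30 months. EOM arrays gave 1083.5, 1739.7, 1115 and 1255 at 6 months, 1344.5, 1450.5, 1333 and 1104 at 18 months, and 1275, 1456.5, 1381 and 1295 at 30 months. The highest EDL array, replicate 2 at 18 months, was below the lowest EOM array. EOM exceeded EDL by 1.12 ± 0.22, 1.05 ± 0.22 and 1.47 ± 0.22 on the log2 scale at 6, 18 and 30 months (adjusted p = 0.000696, 0.00103 and 3.18e-05), and by 1.22 ± 0.13 over the ages (3.61e-08). With age it changed by -0.27 in EDL (95% interval -0.73 to 0.19) and 0.08 in EOM (-0.38 to 0.54) from 6 to 30 months, neither past the threshold.

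Ech1 encodes an isomerase that moves double bonds in unsaturated acyl-CoA so that beta-oxidation can go on. EDL arrays gave 4040.3, 3962, 3429 and 2884 for U08976_at at 6 months, 4213, 4603, 3611 and 3617 at 18 months, and 2678, 4548, 2491 and 2860.5 at 30 months. EOM arrays gave 8281, 9026, 6111 and 6997 at 6 months, 8310.3, 8652, 8895 and 7386 at 18 months, and 8735.5, 10095, 9629.8 and 7485.5 at 30 months. The highest EDL array, 4603, was below the lowest EOM array, 6111. The log2 difference was 1.08 ± 0.17, 1.06 ± 0.17 and 1.55 ± 0.17 at the 3 ages (adjusted p = 6.87e-05, 7.83e-05 and 4.94e-07) and 1.23 ± 0.10 over them (5.33e-10). The age changes from 6 to 30 months were -0.22 in EDL and 0.25 in EOM, and their difference, 0.46 (95% interval -0.05 to 0.98), was not called (adjusted p = 0.998).

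Bdh1 is the mitochondrial enzyme that interconverts the ketone bodies 3-hydroxybutyrate and acetoacetate, and its difference between muscles was the widest of the 7 genes. Its probe set rc_AA817846_at gave 58.6, 10.4, 209 and 74.3 in EDL at 6 months, 60.1, 7.6, 81.6 and 35.8 at 18 months, and 76.6, 8.5, 11.8 and 17.8 at 30 months. EOM gave 425, 787, 621 and 346 at 6 months, 474, 453, 525 and 413 at 18 months, and 507, 477, 445.5 and 385 at 30 months. The lowest EOM array was above the highest EDL array, and replicate 2 was at the floor in EDL at each age. The floor is each array's 25th percentile, 21.4 to 34.5 units, to which lower values were raised, and it held 1, 1 and 3 of the 4 EDL arrays at 6, 18 and 30 months. The EDL level is therefore near background and the fold depends on the floor.

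On that floored scale Bdh1 was higher in EOM by 2.90 ± 0.48, 3.40 ± 0.48 and 3.65 ± 0.48 at the 3 ages (adjusted p = 8.05e-05, 9.21e-06 and 4.08e-06) and by 3.32 ± 0.27 over them (5.88e-10). Across the 36 alternative settings, other floors included, the mean difference ran from 2.79 to 3.84 and stayed past the threshold. Within EOM the group means were 545 ± 198 (SD, n = 4), 466 ± 46.8 and 454 ± 52.2 from 6 to 30 months, a log2 change of -0.20 (95% interval -1.18 to 0.78). In EDL the change was -0.95 (adjusted p = 0.508). It reached -2.16 (adjusted p = 0.0251) only without the 3 EDL arrays that stood apart (range over the alternatives 0.0251 to 0.928), which left 2 arrays at 6 months and 3 at 30 months. Those 3 were all at the floor, so the floor sets the size.

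Pdk4 and Ucp3 are genes of fuel choice. Pdk4 encodes a kinase that shuts down pyruvate dehydrogenase, and Ucp3 a mitochondrial carrier of muscle whose transcript is known to rise with circulating fatty acids. Coefficients of variation within groups were 42.0% to 86.6% for Pdk4 and 15.7% to 54.3% for Ucp3, and the 2 genes tended to be high or low on the same arrays. Stretches of 250 bases before the annotated start of each gene are shown for this reason, from RefSeq on assembly GRCr8. Of the 7 genes 5 had such an entry. The Ucp3 window is chr1:164227660-164227909 (plus strand) and the Pdk4 window chr4:34568330-34568579 (minus strand), both written 5′ to 3′ along the gene. Capitals mark AGGTCA, the half-site that nuclear receptors of fat metabolism are known to bind.
Ucp3: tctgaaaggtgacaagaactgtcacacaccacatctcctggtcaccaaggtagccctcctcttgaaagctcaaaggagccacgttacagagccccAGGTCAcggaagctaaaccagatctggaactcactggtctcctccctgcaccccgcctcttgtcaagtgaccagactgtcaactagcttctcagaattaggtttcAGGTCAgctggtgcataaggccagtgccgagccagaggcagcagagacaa
Pdk4: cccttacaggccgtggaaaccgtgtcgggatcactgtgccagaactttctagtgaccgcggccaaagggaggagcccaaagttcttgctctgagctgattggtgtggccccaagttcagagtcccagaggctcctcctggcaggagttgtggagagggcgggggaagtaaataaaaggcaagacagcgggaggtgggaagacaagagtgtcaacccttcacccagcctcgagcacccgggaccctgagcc
Ucp3 held 2 copies of AGGTCA, starting 155 and 50 bases before the start and both on the gene's strand. At least 1 copy, on either strand, stood in 14.1% of the 33469 windows of that length and at least 2 in 1.27%. Pdk4 held none. AGGTCA preceded by TNA (1.04% of windows) and 2 AGGNCA half-sites with 1 base between them (0.368%) were in neither window. The E-box CANNTG (65.5%) was matched 2 times in Ucp3 and not in Pdk4, where no match says only that these letters are not in this window. The matches are a description of the letters, and none was tested for binding.

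Pdk4 was read by AF034577_at. In EDL it gave 237, 245, 1449 and 702.5 at 6 months, 697, 742, 1867 and 1177.5 at 18 months, and 1422, 639, 2020.1 and 1905 at 30 months. EOM gave 216, 426.5, 512 and 219 at 6 months, 341, 312, 675 and 1353 at 18 months, and 447, 308, 653 and 947 at 30 months. Arrays of the muscles overlapped at every age, and replicates within a group differed by up to several fold. The log2 difference of EOM from EDL was -0.63 ± 0.54, -0.89 ± 0.54 and -1.34 ± 0.54 at 6, 18 and 30 months, none past the threshold (adjusted p = 0.495, 0.262 and 0.0891). At 30 months it passed in 5 of 36 alternatives, the replicate block, centring on medians, array weights, the comparison's own arrays, and without EDL replicate 2 (adjusted p from 0.0103 to 0.247). Over the ages, with all 24 arrays, it was -0.95 ± 0.31 and called (adjusted p = 0.0170), and it remained called in all 36 alternatives.

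Ucp3 was read by AF035943_at and AF030163_s_at. The first gave 1097, 401, 1049.6 and 1132 in EDL at 6 months, 1464, 1609, 1552 and 2610.1 at 18 months, and 1895, 1459, 1885 and 2163 at 30 months. EOM gave 814, 1295, 901 and 755 at 6 months, 976, 836, 966 and 1812.5 at 18 months, and 1393, 911, 922 and 2098 at 30 months. In EDL all arrays at 18 and 30 months exceeded all arrays at 6 months, while in EOM the ages overlapped. The second probe set gave 478, 476, 647 and 921 in EDL at 6 months, 932, 1199, 1361 and 2453 at 18 months, and 2363, 845, 1295 and 2133 at 30 months, and in EOM 527.5 to 803, 619 to 1723 and 637 to 1447.

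Between muscles Ucp3 missed the threshold. The log2 difference of EOM over the ages was -0.37 ± 0.18 (adjusted p = 0.105) by the first probe set and -0.51 ± 0.21 (adjusted p = 0.0517) by the second, which sat close to the threshold and passed it in 12 of 36 alternatives (adjusted p from 0.00947 to 0.103). At 6 months the differences were 0.11 and -0.01 and at 30 months -0.55 and -0.85, with no single age called. Some alternatives called single ages: at 18 months both probe sets passed without EOM replicate 4 (adjusted p = 0.0435 and 0.0484), and at 30 months the second passed with the replicate block, without EDL replicate 2 and without EOM replicate 4 (adjusted p over the 36 from 0.0218 to 0.285).

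**Figure D2:**
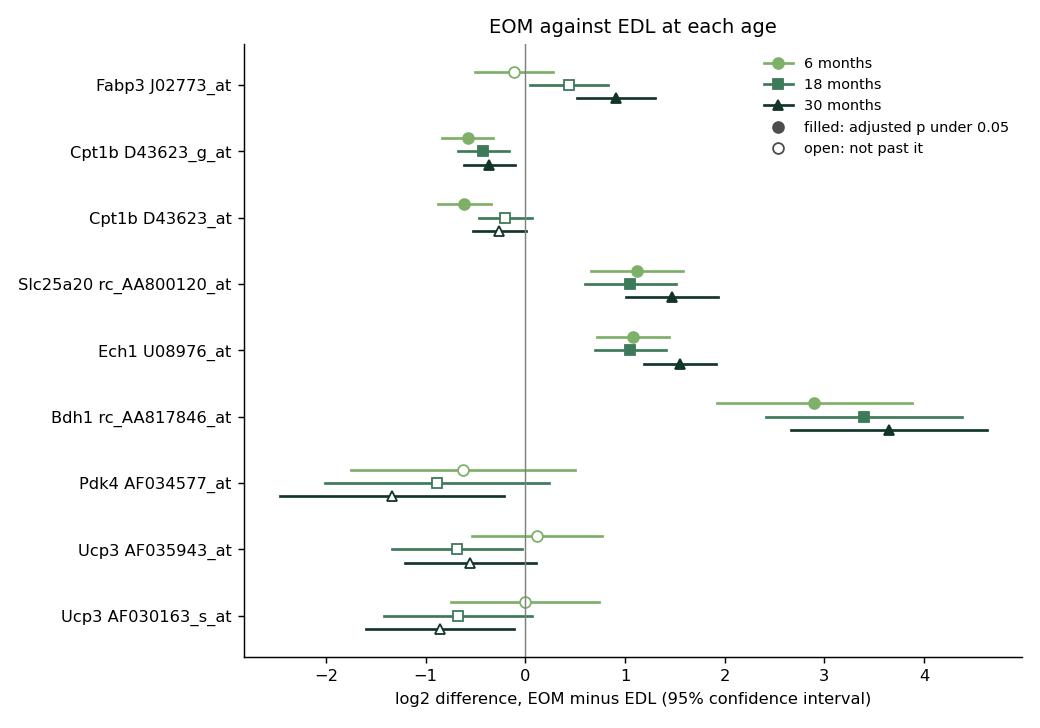
Log2 difference of EOM from EDL (horizontal axis) at 6, 18 and 30 months for each probe set, with 95% confidence intervals from the limma model; filled symbols passed adjusted p under 0.05. Bdh1, Ech1 and Slc25a20 lie to the right at each age and Cpt1b to the left, and Fabp3 runs from -0.11 to 0.91.

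With age, no member was called in either muscle. Of 9 probe sets, 0 passed in EDL for 18 against 6 months (0.279% of all tested did), 30 against 6 (1.86%) and 30 against 18 (1.55%), with 2, 4 and 1 at an unadjusted p under 0.05. In EOM 0 passed for 18 against 6 months (0.174%), 30 against 6 (0.0348%) and 30 against 18 (0.0174%), with 2, 1 and 0 at an unadjusted p under 0.05. The test of any age effect called 0 of 9 in EDL (2.40% of all tested) and 0 of 9 in EOM (0.105%). The tests of a different age change in the muscles also called 0, for 18 against 6 months (0.00%), 30 against 6 (0.192%) and 30 against 18 (0.331%), with 1, 1 and 0 at an unadjusted p under 0.05. All these percentages are shares past the adjusted threshold. No share of all probe sets is given here for an unadjusted p under 0.05. The 4 in EDL for 30 against 6 months include both Ucp3 probe sets.

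The 2 Ucp3 probe sets in EDL had the lowest adjusted p among the age changes from 6 to 30 months, and Pdk4 is given with them. From 6 to 30 months Ucp3 changed by 1.11 ± 0.32 (fold 2.16, unadjusted p = 0.00184, adjusted p = 0.0806) and 1.34 ± 0.36 (2.53, 0.00108, 0.0551), and Pdk4 by 1.47 ± 0.54 (2.77, 0.0124, 0.248). From 6 to 18 months Ucp3 had already changed by 1.05 and 1.20 (adjusted p = 0.248 and 0.244), a comparison that uses the same 6-month arrays. In EOM the changes from 6 to 30 months were 0.44 and 0.49 for Ucp3 and 0.76 for Pdk4, all with intervals that include 0. The difference between the muscles in this change was -0.66 (95% interval -1.59 to 0.26) and -0.85 (-1.90 to 0.20) for Ucp3 and -0.71 (-2.30 to 0.88) for Pdk4, so a muscle-specific change was not shown.

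Replicate numbers are shared by the groups, and same-numbered EDL arrays at 6 and 30 months deviated together over all probe sets (r = 0.123 to 0.331). Replicate 1 at 6 months nevertheless correlated more with replicate 2 at 30 months (0.175). The replicate block adds an effect of each replicate number, shared by all 6 groups, and does not pair single arrays. With it, 3 of the 9 probe sets passed in EDL for 30 against 6 months, where 3.00% of all tested did. These were Ucp3 by both probe sets (adjusted p = 0.0248 and 0.00529) and Pdk4 (adjusted p = 0.0319). In each of the 4 numbers the 30-month array exceeded the 6-month array, by 1.73 to 3.64 times and 1.77 to 4.95 times for Ucp3 and by 1.39 to 6.00 times for Pdk4. For Ucp3 AF035943_at every 30-month array exceeded every 6-month array, so any numbering would give that count. In EOM the 30-month array was the higher in 3 of 4 numbers for each of these probe sets, and replicate 2 was lower at 30 months.

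Array quality moved with Pdk4 in EDL at 6 months. Replicates 1 and 2 of that group, with the high beta-actin ratios, were the lowest of the 4 in Pdk4. In Ucp3 AF035943_at replicate 2 was lowest and replicate 1 second highest, and in Fabp3 replicate 2 was highest. Without the 3 EDL arrays that stood apart, the EDL change from 6 to 30 months was 0.73 and 0.78 for Ucp3 (adjusted p = 0.775 and 0.919) and 0.42 for Pdk4 (adjusted p = 0.9996), all without the replicate block. That fit kept only replicates 3 and 4 at 6 months, with Pdk4 at 1449 and 702.5. Without replicate 4 at 6 months, by contrast, both Ucp3 probe sets were called (1.25 and 1.54, adjusted p = 0.0478 and 0.0254). Pdk4 was called without replicate 3 at 6 months, its highest array of that group. Over all 36 alternatives the adjusted p ran from 0.0248 to 0.775 and 0.00529 to 0.919 for Ucp3 and from 0.0319 to 1 for Pdk4. Gland and epithelium markers also rose in EDL at 30 months, with 3 of 8 genes called and sums of 2870 to 7431 against 310.6 to 774 at 6 months. The part of these in the age changes was not tested.

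**Figure D3:**
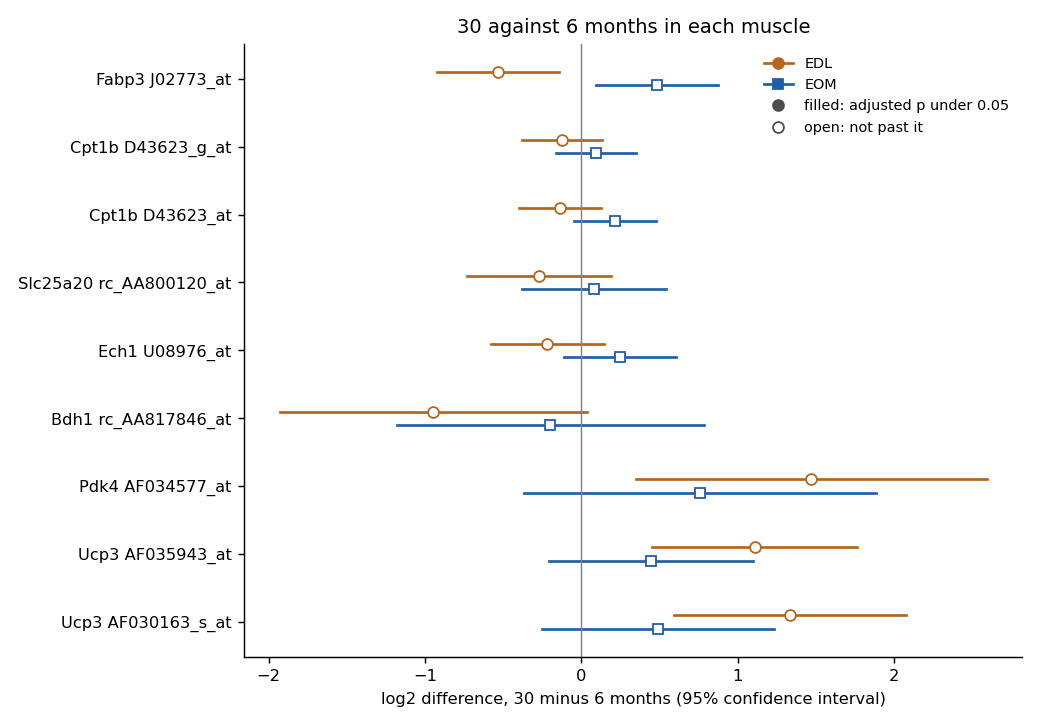
Log2 difference of 30 from 6 months (horizontal axis) in EDL (circles) and EOM (squares) for each probe set, with 95% confidence intervals from the limma model without the replicate block. All symbols are open because no adjusted p was under 0.05; Fabp3 has intervals on opposite sides of 0 in the 2 muscles, and Ucp3 and Pdk4 have EDL intervals above 0.

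Ucp3 and Pdk4 tended to be high or low on the same arrays, with exceptions. EDL replicate 3 at 6 months was above the EDL median in Pdk4 (1449 against 959.7). It was below the EDL median in both Ucp3 probe sets (1049.6 against 1508 and 647 against 1065). Over the 12 EDL arrays the log2 intensities of Pdk4 correlated with the 2 Ucp3 probe sets at Pearson's r = 0.707 and 0.749 (Spearman's rho = 0.601 and 0.664), and over the 12 EOM arrays at 0.773 and 0.836 (0.755 and 0.776). Without the 2 arrays farthest from the Ucp3 median the EDL values were 0.603 and 0.807 and the EOM values fell to 0.451 and 0.537, so the relation in EOM rests in part on replicate 4 at 18 and 30 months. Deviations from the 6 group means correlated at 0.610 and 0.664 over 24 arrays. No p is given, since the arrays share ages and replicate numbers. Fabp3 and Ech1 also kept together within muscles (r = 0.680 in EDL and 0.805 in EOM). Ech1 ran against Pdk4 in EDL (-0.600) and less so in EOM (-0.147). Other pairs of members, some with larger values, are not listed here.

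**Figure D4:**
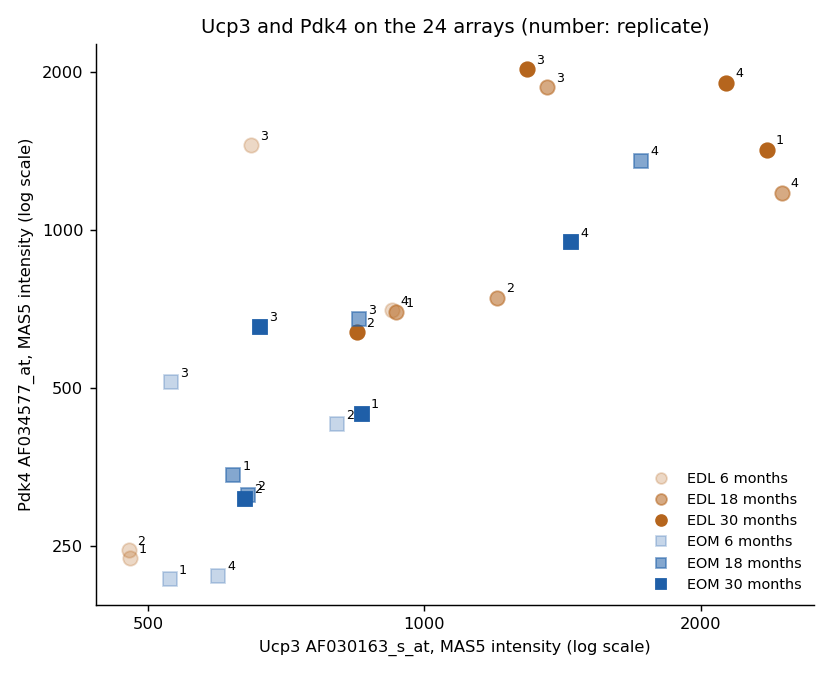
Pdk4 intensity against Ucp3 intensity (AF030163_s_at) on the 24 arrays, both axes logarithmic; circles are EDL, squares EOM, darker fill is older and the small number is the replicate. EDL replicates 1 and 2 at 6 months sit at the lower left and replicate 4 of EOM at 18 and 30 months sits above the other EOM arrays.

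Other genes of the same pathways were counted through the brightest probe set of each gene, where 23.4% of all 3419 tested genes were higher in EOM over the ages and 20.0% lower (median log2 difference -0.04). Of 10 tested genes for fatty acid uptake and binding, 6 were higher and 1 lower (median 0.65). Fabp5, a binding protein of epithelium and fat, was 8.48-fold higher, with EOM means of 5100 ± 1398 (SD, n = 4), 1951 ± 223 and 4759 ± 2871 at the 3 ages against 318 ± 77.2, 252 ± 69.9 and 1023 ± 743 in EDL. Slc27a1, a fatty acid transport protein of muscle, was 2.47-fold higher (adjusted p = 4.74e-09). Slc27a2, a very long chain acyl-CoA synthetase best known from liver, was 2.46-fold lower (adjusted p = 0.00774), with 2 EOM arrays at the floor.

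Acyl-CoA synthesis and hydrolysis had 2 of 7 genes higher and 1 lower (median 0.06). Acsl5, an acyl-CoA synthetase, was 9.98-fold higher (adjusted p = 4.47e-13), and Acsl6, another member of that family, 2.38-fold lower (adjusted p = 1.16e-07). Acot2, a mitochondrial thioesterase, was 1.30-fold higher by its brightest probe set, while its other probe set gave a log2 difference of -0.71 (adjusted p = 0.0546), so the direction of Acot2 is uncertain. In the carnitine shuttle 3 of 6 were higher and 1, Cpt1b, lower (median 0.36). Cpt1a, the form of liver and many other tissues, was 1.77-fold higher (adjusted p = 0.000258), opposite to Cpt1b, and Cpt2 of the inner membrane 1.38-fold higher (adjusted p = 0.00116).

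Mitochondrial beta-oxidation had 8 of 15 genes higher and 1 lower (median 0.25). Decr1, which like Ech1 serves unsaturated fatty acids, was 1.85-fold higher (adjusted p = 1.03e-06) and Ivd, of leucine breakdown, 1.62-fold (adjusted p = 5.09e-06). Etfa, a subunit of the electron acceptor of the acyl-CoA dehydrogenases, was 1.30-fold lower (adjusted p = 0.00915). Of 9 peroxisomal genes, 7 were higher, and the lowest difference was 0.04 (median 0.59). Acox2, an oxidase of branched acyl chains, was 2.56-fold higher with 7 of the 12 EDL arrays at the floor. Abcd3, a peroxisomal membrane transporter, was 1.76-fold higher by its brightest probe set (adjusted p = 0.00351) and not called by the other (adjusted p = 0.354).

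Ketone body metabolism had 5 tested genes, of which Bdh1 alone was higher and 2 were lower (median -0.24). Both of these carry monocarboxylates, a class that includes lactate as well as ketone bodies: Slc16a3 was 3.54-fold lower (adjusted p = 3.54e-10) and Slc16a1 1.34-fold lower (adjusted p = 0.0113). Fuel choice and uncoupling had 3 of 17 higher and 4 lower (median 0.00). The pyruvate dehydrogenase phosphatases, which oppose the kinases, differed in opposite directions, Pdp2 being 3.03-fold higher with 7 of 12 EDL arrays at the floor and Pdp1 1.45-fold lower. Ucp2, a relative of Ucp3 found in many tissues, was 2.04-fold higher (adjusted p = 4.75e-06), and Prkaa2, the muscle catalytic subunit of AMP-activated kinase, 3.14-fold lower (adjusted p = 0.00101).

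Nuclear regulators had 2 of 11 higher and 4 lower (median -0.19). Pparg, a fat cell receptor, was 1.81-fold higher at low intensity. Thra, a thyroid hormone receptor, was called higher by 1 of 3 probe sets, and the others gave log2 differences of 0.33 and -0.28, neither called. Rxra, the partner of the PPAR receptors, was 3.66-fold lower (adjusted p = 0.00147) with 2 EOM arrays at the floor, and Nr4a1, a receptor induced by activity, 1.83-fold lower (adjusted p = 0.000321). The TCA cycle, which takes up the acetyl-CoA, had 2 of 10 higher and 1 lower (median 0.04), namely Mdh1 (1.49-fold) and Aco1 (1.40-fold) higher and Idh2 1.29-fold lower. For 30 against 6 months, limma called 0 of the 90 distinct genes of the 9 lists in either muscle. Of all 3419 tested genes it called 1.64% in EDL and 0.0292% in EOM. At an unadjusted p under 0.05 stood 13 of the 90 in EDL and 3 in EOM. The share of all genes at that level is not given here.

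**Figure D5:**
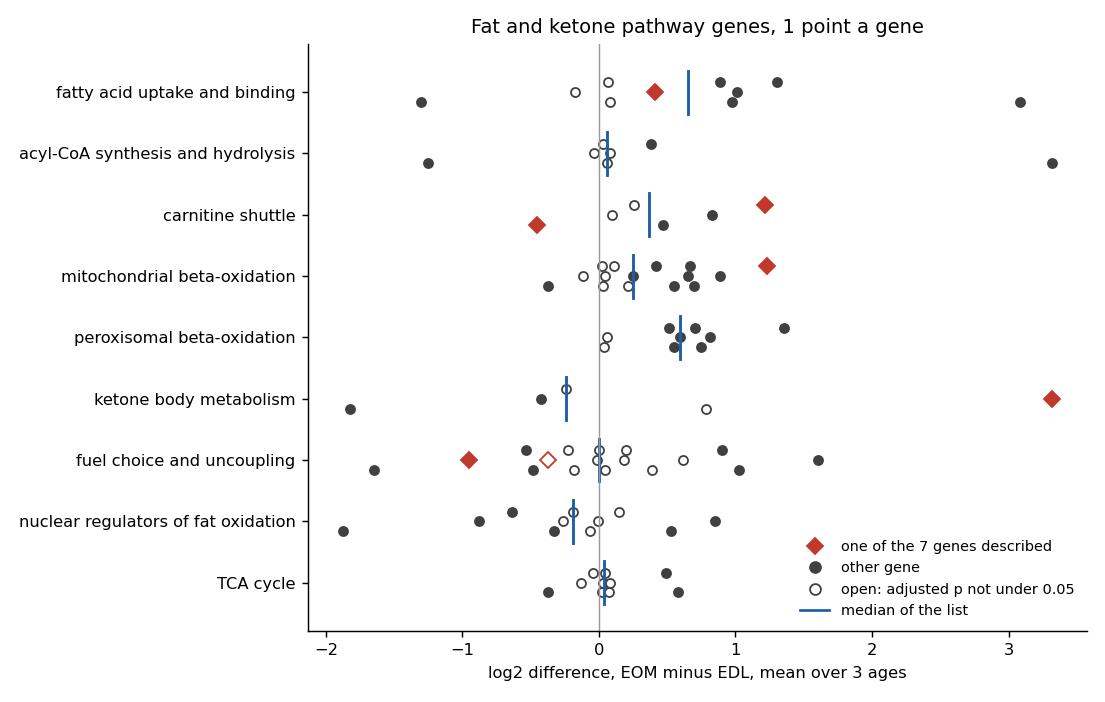
Log2 difference of EOM from EDL over the 3 ages (horizontal axis) for each tested gene of 9 pathway lists (rows); red diamonds are the 7 genes described, filled symbols passed adjusted p under 0.05 and the blue line is the list's median. Peroxisomal genes lie at or right of 0, and in the carnitine shuttle Cpt1b and Slc25a20 mark the lowest and the highest value.

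The genes whose log2 intensities were most like each member over the 24 arrays were named by Pearson's r. Differences between the muscles, the ages and the quality of arrays all enter this measure. For Bdh1 they were Kcnma1 (0.954), Fez1 (0.945) and Ndrg4 (0.943), and for Ech1 the eye-muscle and developmental myosins Myh8 (0.942) and Myh13 (0.937) and Aatk (0.931). Slc25a20 was closest to Aldoc (0.934), Tmem47 (0.924) and Grb14 (0.920). Fabp3 was closest to Cpt2 (0.839), Ephx1 (0.763) and Hadha (0.758), of which Cpt2 and Hadha are themselves fatty acid oxidation genes. Ucp3 was nearest to Cops7a (0.815), Sgta (0.786) and Gpd1 (0.784), Pdk4 to Arnt (0.892), Met (0.856) and Akt2 (0.854), and Cpt1b to Gnas (0.895), Gyg1 (0.894) and Ptp4a1 (0.889).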

How the data were processed

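Intensities were deposited as a table of Affymetrix Microarray Suite 5.0 values, 1 column an array, as the design text and, per the submitters' processing notes, the tool list state; each array carried RNA pooled from 4 animals. The scaling the authors used was not given in the sources used here, array medians ran from 89.7 to 136.8, and no further scaling was applied. Array data have no read depth, so the number of arrays limits the precision. Of 8799 probe sets 59 controls were left out, and symbols came from the platform annotation (7006 with 1 symbol, 308 with several, 1426 with none). Values below an array's 25th percentile were raised to it before the log2. Testing required a value above the array's 40th percentile on at least 3 of 4 arrays of a group (5741 of 8740). A model of the 6 group means was fitted with limma 3.58.1 in R 4.3.3 (lmFit, eBayes with an intensity trend), two-sided, with Benjamini-Hochberg adjustment over all 5741 and a threshold of 0.05; the fit was tested on simulated data.

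The study's own rule, which used absent and present calls and pairwise difference calls, could not be applied since those calls were not used here. The 7 members and the gene lists were chosen with earlier results of these data known. Beyond the members, each pathway list is represented by its called genes, at most 2 that were highest and 2 that were lowest in EOM relative to EDL over the ages, with the 3 genes most like each member. Same-numbered arrays of different groups had correlated deviations from their group means (median 0.284 over 60 pairs, against -0.117 over 180 pairs of unlike numbers). Of the 24 arrays, 22 had their highest mean correlation with arrays of their own number. For EDL at 6 and 30 months all 4 pairs exceeded 0.1 (0.123 to 0.331), and the replicate block is printed beside that result. The same was so in other comparisons, among them EDL and EOM at 6 months (0.134 to 0.342) and EOM at 6 and 30 months (0.141 to 0.527). The main tests, muscle differences included, took no account of the numbers. The labels do not say what a number marks. Alternatives were other normalizations, floors, filters, variance models, the replicate block, each comparison's own arrays, each array left out, and 3 EDL arrays left out together. Protein sequences and the promoters of Ech1 and Cpt1b were not used here.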

Additional observations from a re-analysis of the deposited data

Results flagged for a closer look

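In 6 of 54 groups of 4 arrays the highest or lowest array stood apart from the other 3, by a gap beyond Dixon's 95% critical value; about 1 in 20 such groups does so by chance. Among EDL arrays, replicate 2 at 6 months was low for Ucp3 AF035943_at (400.7) and replicate 4 at 18 months was high (2610.1). Replicate 4 of EOM at 18 months was also high for that probe set (1812.5). Replicate 1 of EDL at 30 months, the array that correlated least with its group, was high for Bdh1 (76.6) and low for Cpt1b D43623_g_at (5890.3). Replicate 2 of EOM at 30 months was high for Fabp3 (13401.4).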

How the results depend on the processing

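Over 36 alternatives, 24 of which leave out 1 array, 4147 of 4212 values of single members kept their side of the threshold, 20 lost and 45 gained a call. The sign changed in 80, of which 0 were called in either fit. The count of members higher in EOM over the ages was 4, and 3 with arrays centred on their medians (Fabp3 lost). The count lower was 3 and became 5 with quantile normalisation and with array weights, and ran from 3 to 5 with 1 array left out. For single ages, the count called was 5 at 6 months throughout, and ran from 3 to 6 at 18 months and from 4 to 6 at 30 months with 1 array left out. In EDL for 30 against 6 months the count of 0 became 1 with the stricter filter, 1 without the 3 EDL arrays, 3 with the replicate block, and 0 to 3 with 1 array left out. The arrays whose absence gave a call there were EDL replicates 3 and 4 at 6 months, 4 at 18 and 2 at 30, and EOM replicate 4 at 18 and at 30. In EDL for 18 against 6 months the replicate block gave 1 called (Ucp3 AF030163_s_at, adjusted p = 0.044). Deviations of the same-numbered arrays of these 2 groups correlated at 0.0961 to 0.455, so not all exceeded 0.1. The difference of age changes for 30 against 6 months gave 0 to 1 with 1 array left out. Over the ages the replicate block gave 4 higher and 4 lower, adding Ucp3 AF030163_s_at (adjusted p = 0.00947). Centring arrays on their medians shifted the median of all probe sets by -0.143 for EDL 30 against 6 months and by 0.101 for that difference of changes. With few arrays and Bdh1 near background in EDL, its fold is the value most tied to the floor.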
